A study of Mus musculus with 3 samples.

Results

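The NRF2 pathway and the enzymes that remove reactive oxygen were followed as 10 genes, Nfe2l2, Keap1, Nqo1, Gclc, Gclm, Hmox1, Srxn1, Txnrd1, Cat and Sod2, taken by gene name from a table of 35275 genes measured in mouse liver. All 10 were found, and all 10 stood at 1 FPKM or more in each library. FPKM counts the fragments of a gene for its length and for the size of the library, so levels can be set against each other between genes. Nqo1 was the lowest in every library and Cat the highest.

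NRF2, the product of Nfe2l2, is a transcription factor that KEAP1 binds in the cytosol and hands to the CUL3 ubiquitin ligase, so that it is broken down. Oxidants and electrophiles modify cysteines of KEAP1, NRF2 then escapes, pairs with a small MAF protein in the nucleus and binds antioxidant response elements of its target genes. Its classic targets make glutathione, reduce thioredoxin and quinones, break down heme and carry conjugated compounds out of the hepatocyte. Much of this control acts on the protein, so a transcript level of Nfe2l2 or Keap1 is not a measure of NRF2 activity. Catalase and the mitochondrial superoxide dismutase SOD2 belong to the same defence but answer to other regulators as well.

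PolyA RNA of liver from male C57BL/6J mice was sequenced in 3 libraries, 1 for each group, from mice aged 10 weeks when the diets began. Control mice ate normal chow and had no treatment; their total time on it is not stated. NASH (nonalcoholic steatohepatitis) mice, also untreated, ate a western diet and drank fructose, and their label gives 24 weeks. TH-treated NASH mice had the same diet for 16 weeks and then took the thyroid hormones T3 and T4, given in the labels as 35 and 7 ng/g, in drinking water with 15% fructose for 8 weeks. A diet-fed mouse liver is a model of the human disease, and the labels do not tell whether a library holds 1 animal or a pool. No group has a replicate, so differences between animals are not estimated, no test between groups was possible and no p-value is given. Group names below stand for single libraries.

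The libraries held 38303410 to 54576236 fragments on genes, and the members rested on 125 fragments (Nqo1 in TH-treated NASH) to 147551 (Cat in control). Ranges in brackets are exact 95% intervals for counting error only. All 10 hepatocyte markers checked were present in every library, Alb, albumin, at 14907 to 32685 FPKM. A gene is called higher or lower here from a 1.5-fold difference on the log2(FPKM + 1) scale, a scale on which the fold of low genes comes out smaller. The median log2 difference of all genes was 0.12 for NASH against control, −0.03 for TH-treated NASH against NASH and 0.12 for TH-treated NASH against control. Under median-of-ratios scaling the first of these medians moved to −0.07, so some folds are also given beyond the median. The share of calls that were higher also moved with the scaling: it was 80.3% for NASH against control as deposited, but 59.0% under median-of-ratios and 63.6% under trimmed-mean scaling. For TH-treated NASH against NASH it was 48.4% as deposited, and 34.9% with totals made equal. For TH-treated NASH against control it was 69.4% as deposited, and 49.9% under median-of-ratios and 48.6% under trimmed-mean scaling.

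**Figure D1:**
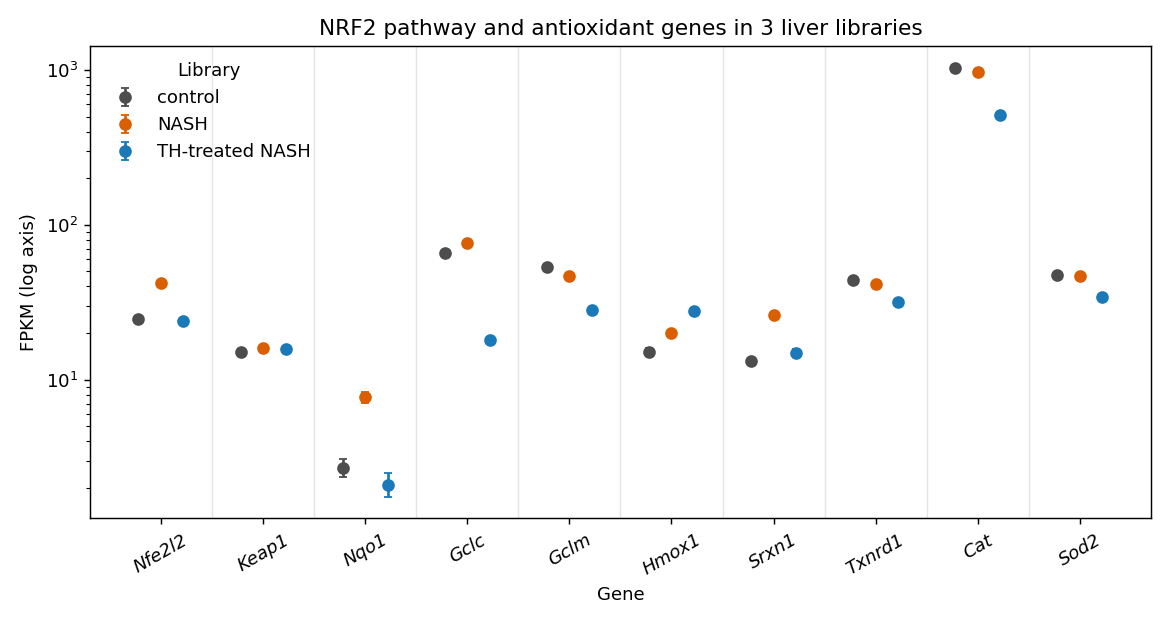
FPKM of the 10 genes (log axis) in control, NASH and TH-treated NASH, 1 library each; bars are 95% counting intervals, mostly smaller than the points. Nfe2l2, Nqo1 and Srxn1 peak in NASH (41.9, 7.71 and 26.3 FPKM), and Gclc is lowest in TH-treated NASH (18.01 FPKM).

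NASH against control asked how the diet-fed liver differed from liver on chow. Of the 10 members, 3 passed 1.5-fold on the higher side and none on the lower, against 10.5% of all 11499 genes higher and 2.57% lower. The 3 were the transcription factor gene Nfe2l2 and its targets Nqo1 and Srxn1. The other 7 members lay within 1.5-fold, Hmox1 on the higher side and Gclm on the lower. The members' median log2 difference was 0.16, beside 0.12 for all genes.

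In TH-treated NASH against NASH, which asked how hormone-treated mice differed from untreated mice on the diet, 6 of the 10 members were at least 1.5-fold lower and none higher. In this pair 9.03% of all 11734 genes were lower and 8.49% higher. The same 3 genes that were higher in NASH were among the 6, joined by both subunits of glutamate-cysteine ligase, Gclc and Gclm, and by Cat. Hmox1 was the one member with a positive difference. The members' median log2 difference was −0.74, beside −0.03 for all genes. These counts share the NASH library with the first comparison, so the values are not independent.

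TH-treated NASH against control, which leaves the NASH library out, had 3 of 10 members lower, Gclc, Gclm and Cat, and 1 higher, Hmox1. Of all 11474 genes in that pair, 6.98% were lower and 15.8% higher. Nfe2l2, Nqo1 and Srxn1 were within 1.5-fold of control there. The 10 genes thus showed 3 patterns: high in NASH alone (Nfe2l2, Nqo1, Srxn1), low in TH-treated NASH alone (Gclc, Gclm, Cat), and highest in TH-treated NASH (Hmox1), with Keap1, Txnrd1 and Sod2 within 1.5-fold in all 3 pairs as deposited.

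**Figure D2:**
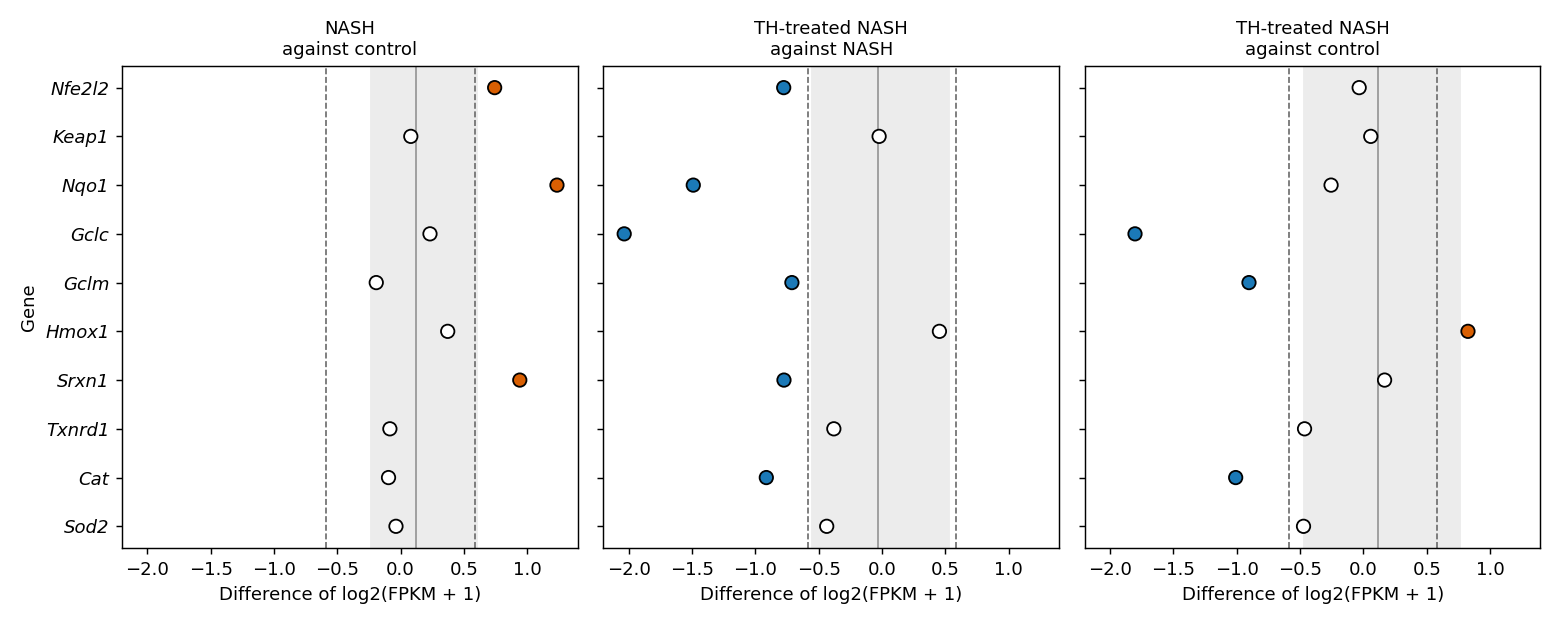
Difference of log2(FPKM + 1) for each gene in 3 comparisons, 1 library a side; filled points pass 1.5-fold (dashed lines), orange higher and blue lower, the grey band holds the central 80% of all genes and the grey line is their median. Nqo1 is furthest right in NASH against control (1.23) and Gclc furthest left in TH-treated NASH against NASH (−2.04).

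Nfe2l2 (ENSMUSG00000015839, chromosome 2 from 75675513 to 75704641 in the deposited table) encodes NRF2. It stood at 24.6 (control), 41.9 (NASH) and 24.1 FPKM (TH-treated NASH). The NASH library was the high one. As deposited, control and TH-treated NASH did not differ beyond counting error, with a ratio of 0.976 (0.925 to 1.03). Over the scalings and centring by gene length, the ratio of TH-treated NASH to control fell as low as 0.860 on the log2(FPKM + 1) scale. The NASH level was 1.70-fold that of control (1.63 to 1.78), or 1.54-fold beyond the median of all genes. It was under the 1.5-fold line with median-of-ratios and trimmed-mean scaling, the lowest value on the log2(FPKM + 1) scale being 1.45-fold. TH-treated NASH was 1.74-fold lower than NASH (1.66 to 1.83).

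Keap1 (ENSMUSG00000003308, chromosome 9 from 21229730 to 21239332), the adaptor that leads NRF2 to breakdown, stood at 15.0 (control), 16.0 (NASH) and 15.7 FPKM (TH-treated NASH). It had the narrowest range of the 10 genes, 0.08 on the log2(FPKM + 1) scale, and the sign of its small differences turned with the scaling in every pair. Gm16754, a long noncoding RNA gene, overlaps Keap1 on the opposite strand, and the sources used here do not state whether counting used strand. That gene held 134 to 250 fragments beside 2689 to 3671 for Keap1. The ratio of Nfe2l2 to Keap1 within a library, which no scaling between libraries can move, was 1.64 in control (1.56 to 1.72), 2.62 in NASH (2.51 to 2.74) and 1.53 in TH-treated NASH (1.45 to 1.62).

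Nqo1 (ENSMUSG00000003849, chromosome 8 from 107388225 to 107403206) encodes NAD(P)H quinone dehydrogenase 1, a much used readout of NRF2. It stood at 2.70 (control), 7.71 (NASH) and 2.10 FPKM (TH-treated NASH), on 229, 563 and 125 fragments. NASH was again the high library, 2.85-fold above control (2.44 to 3.34), and 222 of the 11499 genes had a larger difference. TH-treated NASH was 3.67-fold lower than NASH (3.02 to 4.49), with 122 of 11734 genes further down. Against control, TH-treated NASH was 1.29-fold lower (1.03 to 1.61).

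Srxn1 (ENSMUSG00000032802, chromosome 2 from 152105516 to 152111376) encodes sulfiredoxin, which restores over-oxidized peroxiredoxins. It stood at 13.2 (control), 26.3 (NASH) and 15.0 FPKM (TH-treated NASH). NASH was 1.99-fold above control (1.88 to 2.10), or 1.77-fold beyond the median, and TH-treated NASH was 1.76-fold lower than NASH (1.66 to 1.87). The ratio of Srxn1 to Nfe2l2 within a library was 0.537 (control), 0.628 (NASH) and 0.623 (TH-treated NASH). The ratio of Nqo1 to Nfe2l2 spread further, at 0.110, 0.184 and 0.0874, and Srxn1 over Nqo1 was 4.90, 3.41 and 7.13.

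The promoter windows of the 3 genes that shared this pattern are printed to show what sequence they have in common, and that of Cat because it is the most abundant member and was lower in TH-treated NASH. Each window runs from 250 bases before to 50 after the start site, in RefSeq on GRCm38.p6, 5′ to 3′ on the gene's strand. The windows are chr2:75704614-75704913 on the minus strand for Nfe2l2, chr8:107403156-107403455 on the minus strand for Nqo1, chr2:152105274-152105573 on the plus strand for Srxn1 and chr2:103485104-103485403 on the minus strand for Cat. Capitals mark matches, on either strand, to TGACNNNGC (the core of the antioxidant response element), TGANTCA (the AP-1 form of it, searched after the Srxn1 sequence had been read) and AGGTCA (a half-site of nuclear receptors, thyroid hormone receptors among them).
Nfe2l2: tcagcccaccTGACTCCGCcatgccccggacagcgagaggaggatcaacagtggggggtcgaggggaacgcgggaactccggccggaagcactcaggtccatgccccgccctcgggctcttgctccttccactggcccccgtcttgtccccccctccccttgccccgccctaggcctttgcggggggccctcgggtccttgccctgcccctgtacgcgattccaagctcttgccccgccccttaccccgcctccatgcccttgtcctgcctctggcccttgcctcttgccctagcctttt
Nqo1: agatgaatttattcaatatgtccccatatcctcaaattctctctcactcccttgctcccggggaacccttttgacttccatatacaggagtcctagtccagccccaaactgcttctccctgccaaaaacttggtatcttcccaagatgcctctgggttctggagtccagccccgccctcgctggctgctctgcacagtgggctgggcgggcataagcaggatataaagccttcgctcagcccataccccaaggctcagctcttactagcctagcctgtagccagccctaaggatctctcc
Srxn1: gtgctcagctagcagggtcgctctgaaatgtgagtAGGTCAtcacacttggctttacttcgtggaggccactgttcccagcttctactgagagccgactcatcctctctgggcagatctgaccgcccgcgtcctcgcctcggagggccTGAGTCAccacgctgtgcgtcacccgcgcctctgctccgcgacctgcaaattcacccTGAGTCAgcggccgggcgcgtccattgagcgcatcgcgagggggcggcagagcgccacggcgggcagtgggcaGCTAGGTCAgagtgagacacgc
Cat: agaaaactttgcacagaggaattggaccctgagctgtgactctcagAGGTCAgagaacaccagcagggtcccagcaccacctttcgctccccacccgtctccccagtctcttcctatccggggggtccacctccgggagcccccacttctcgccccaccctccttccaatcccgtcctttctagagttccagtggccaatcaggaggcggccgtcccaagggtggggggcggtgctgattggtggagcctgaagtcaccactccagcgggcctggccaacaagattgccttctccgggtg

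Positions give the leftmost base of a match, counted from the start site as base 1. The Srxn1 window held the AP-1 form at −102 and −45, the half-site at −215, and a core match on the opposite strand at base 29 that overlaps a second half-site at base 32. Nfe2l2 held 1 core match at −240, Cat 1 half-site at −204, and Nqo1 none of the 3 motifs in this window. Over the 8 members with an entry, which have 10 windows, the core was in 4 windows (Gclm, Nfe2l2, Srxn1 and Txnrd1), the AP-1 form in 1 and the half-site in 2. Of all 32851 promoter windows, 12.4% held the core, 7.81% held the AP-1 form and 16.3% held the half-site. The 3 genes high in NASH thus had no motif of the 3 in common in these windows, and a letter match is not a bound site.

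Gclc (ENSMUSG00000032350, chromosome 9 from 77754535 to 77794485) encodes the catalytic subunit of glutamate-cysteine ligase, the rate-limiting enzyme of glutathione synthesis. It stood at 65.3 (control), 76.9 (NASH) and 18.01 FPKM (TH-treated NASH). The TH-treated library was the low one, 4.27-fold lower than NASH (4.09 to 4.47) and 3.63-fold lower than control (3.47 to 3.79). Only 44 of 11734 genes had a lower difference in the first of these pairs and 62 of 11474 in the second. Gclc ranked 2 among the 10 members in control and NASH, and 7 in TH-treated NASH, behind Nfe2l2.

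Gclm (ENSMUSG00000028124, chromosome 3 from 122245557 to 122269984) encodes the modifier subunit, which raises the affinity of the catalytic one for glutamate. It stood at 53.4 (control), 46.6 (NASH) and 28.1 FPKM (TH-treated NASH), 1.66-fold lower in the last than in NASH (1.61 to 1.72) and 1.90-fold lower than in control (1.84 to 1.96). Both subunits were thus lowest in TH-treated NASH, the catalytic one by more. The ratio of Gclc to Gclm within a library was 1.22 in control (1.19 to 1.25), 1.65 in NASH (1.61 to 1.69) and 0.641 in TH-treated NASH (0.611 to 0.673), so the more abundant transcript was Gclc in 2 libraries and Gclm in the third. A pseudogene, Gm6061, and an antisense gene, Gm17494, overlap Gclm and held at most 11 fragments in any library.

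**Figure D3:**
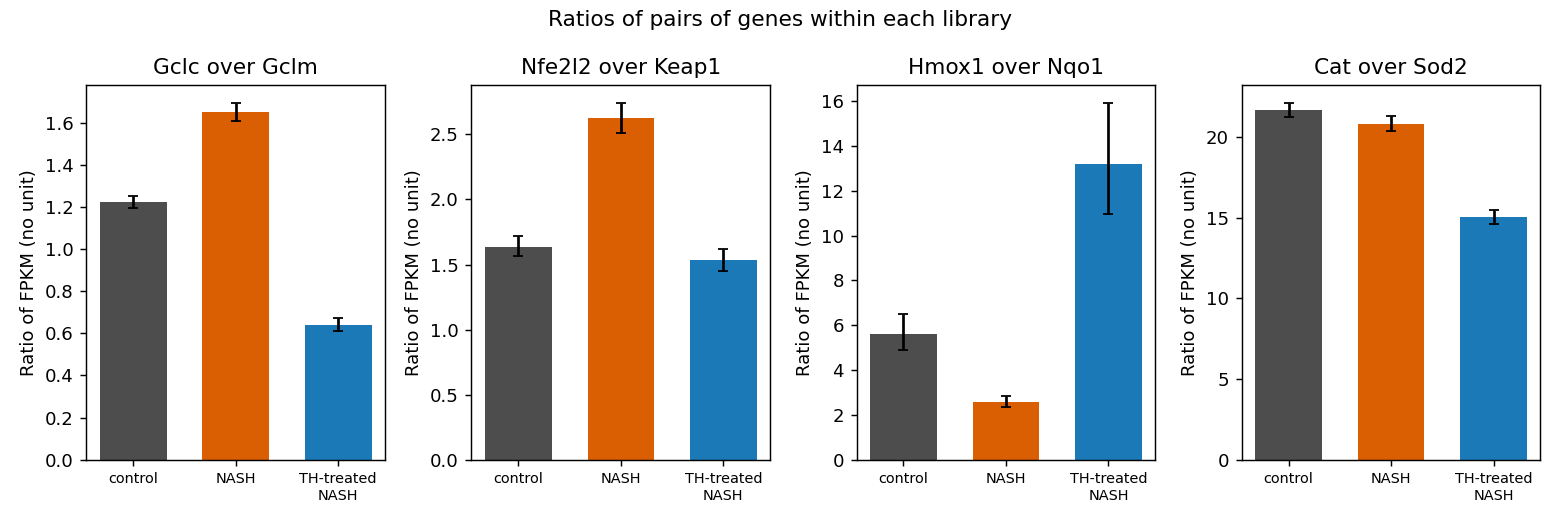
Ratios of the FPKM of 2 genes within each library (1 library per bar, axis from 0), with 95% counting intervals. Gclc over Gclm is 1.65 in NASH and 0.641 in TH-treated NASH, and Hmox1 over Nqo1 is 2.59 in NASH and 13.2 in TH-treated NASH.

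Txnrd1 (ENSMUSG00000020250, chromosome 10 from 82859206 to 82897724), the cytosolic thioredoxin reductase, stood at 44.0 (control), 41.4 (NASH) and 31.6 FPKM (TH-treated NASH). Its lowest library was TH-treated NASH, 1.31-fold under NASH (1.26 to 1.36) and 1.39-fold under control (1.34 to 1.45), within the 1.5-fold line as deposited. In NASH its level and that of Nfe2l2 were not separable by counting error, with a ratio of Nfe2l2 to Txnrd1 of 1.01 (0.974 to 1.05).

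Hmox1 (ENSMUSG00000005413, chromosome 8 from 75093591 to 75100596) encodes heme oxygenase 1, which opens the heme ring and is a target of NRF2 and of its competitor BACH1. It stood at 15.2 (control), 19.9 (NASH) and 27.7 FPKM (TH-treated NASH). TH-treated NASH was 1.39-fold above NASH (1.29 to 1.49) and 1.82-fold above control (1.70 to 1.96), and NASH was 1.31-fold above control (1.22 to 1.42). Hmox1 and Nqo1 are both NRF2 targets, yet their order of libraries differed: the ratio of Hmox1 to Nqo1 was 5.62 in control (4.88 to 6.49), 2.59 in NASH (2.35 to 2.85) and 13.2 in TH-treated NASH (10.98 to 15.9).

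Hmox1 is also expressed by macrophages that clear red cells, and the marker sums of several cell types were also highest in TH-treated NASH. The summed FPKM of 9 Kupffer cell markers, resident macrophages of the liver, was 173 (control), 487 (NASH) and 804 (TH-treated NASH), with 8 of 9 higher in NASH than control and 5 of 9 higher again in TH-treated NASH. Cd163, the receptor for haemoglobin bound to haptoglobin, stood at 3.40, 1.80 and 9.62 FPKM, and Marco, a scavenger receptor, at 3.30, 22.3 and 79.2 FPKM. The sum over 10 neutrophil markers was 5.85, 11.8 and 106 FPKM, with Ly6g at 0 in control. Of these 10, 3 reached 1 FPKM in NASH, and 2 were higher in NASH than control. In TH-treated NASH 6 of the 10 were higher than in NASH. The sum over 7 red blood cell markers was 316, 392 and 1760 FPKM, with 6 higher and 1 lower in TH-treated NASH than in NASH. The lower one, Alas2, stood at 60.5, 44.3 and 22.8 FPKM. Over all genes, 10.5% were higher in NASH than control. In TH-treated NASH against NASH, 8.49% of all genes were higher and 9.03% lower. The part of these cell types in the Hmox1 values was not tested. In bulk liver, more cells of a type and more RNA per cell cannot be told apart.

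Nqo1 and the sum over 10 cholangiocyte markers were both highest in NASH, the latter at 37.6 (control), 113 (NASH) and 52.0 FPKM (TH-treated NASH). Of these 10 markers 3 were higher in NASH than control, against 10.5% of all genes. In TH-treated NASH 4 were lower than in NASH, against 9.03% of all genes. The sum over 10 markers of monocytes and lipid-associated macrophages was 56.2, 177 and 107 FPKM, and that of 10 stellate cell and fibroblast markers 77.5, 159 and 110 FPKM. Spp1, osteopontin, at 27.0, 95.8 and 44.3 FPKM, is counted in both the cholangiocyte and the monocyte and macrophage sums and is the most abundant gene of each, so these sums are not separate measures. Hepatocyte markers summed to 59423, 39477 and 39955 FPKM. Alb weighs most in these sums, at 32685, 20265 and 14907 FPKM, so they largely follow 1 gene. The next marker in control, Apoa1, stood at 9851, 7434 and 10408 FPKM, highest in TH-treated NASH. Of the 10 hepatocyte markers, 3 were higher and 2 lower in TH-treated NASH than in NASH, against 8.49% and 9.03% of all genes. Against control, 1 was higher and 4 were lower in TH-treated NASH, against 15.8% and 6.98% of all genes. Gclc, Gclm and Cat were lower in both of these pairs. The part of these cell types in the values of Nqo1, Nfe2l2, Srxn1, Gclc, Gclm and Cat was not tested.

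**Figure D4:**
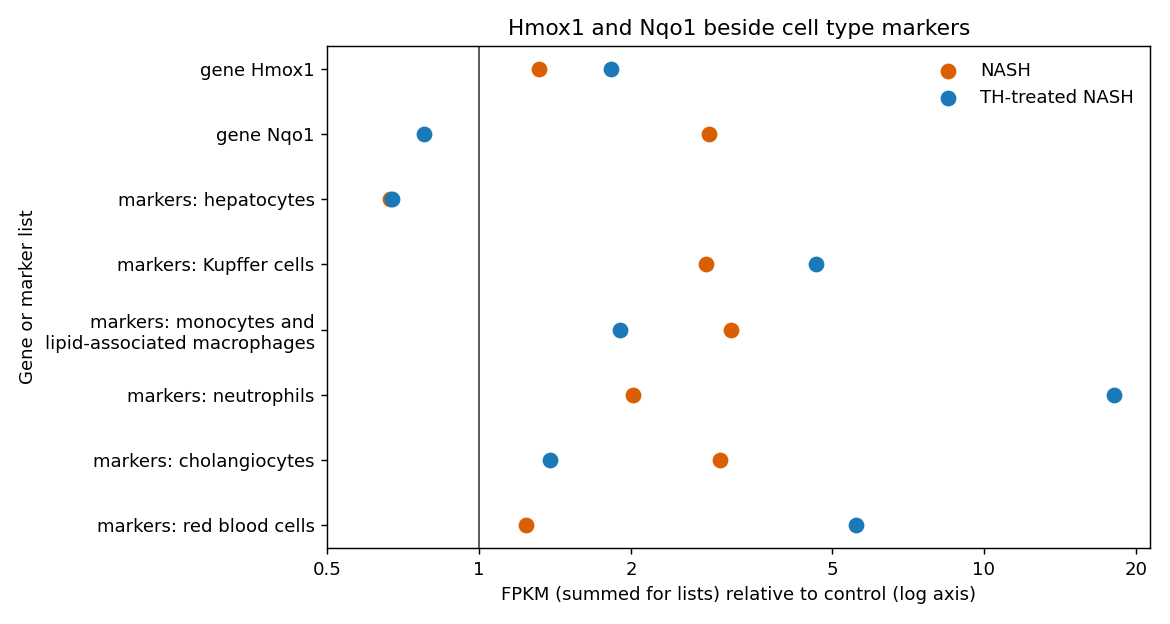
FPKM of Hmox1 and Nqo1, and summed FPKM of 6 marker lists, in NASH (orange) and TH-treated NASH (blue) relative to control (line at 1, log axis; 1 library each, no error shown). Neutrophil markers reach 18.1 times control in TH-treated NASH. The hepatocyte sum is 0.664 (NASH) and 0.672 (TH-treated NASH) times control, with most weight on Alb, which alone is 0.620 and 0.456 times control.

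Cat (ENSMUSG00000027187, chromosome 2 from 103453849 to 103485160) encodes catalase, the peroxisomal enzyme that breaks down hydrogen peroxide. It stood at 1035 (control), 969 (NASH) and 514 FPKM (TH-treated NASH), with rank 63 among all genes in control and 149 in TH-treated NASH. TH-treated NASH was 1.89-fold lower than NASH (1.87 to 1.90) and 2.01-fold lower than control (1.99 to 2.03). NASH and control differed by 1.07-fold (1.06 to 1.08). Its intervals are the narrowest of the 10 genes because it has the most fragments.

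Sod2 (ENSMUSG00000006818, chromosome 17 from 13007839 to 13018119), which turns superoxide into hydrogen peroxide in mitochondria, stood at 47.7 (control), 46.5 (NASH) and 34.1 FPKM (TH-treated NASH). As deposited, control and NASH did not differ beyond counting error, with a ratio of 0.975 (0.947 to 1.003). Over the scalings the ratio of NASH to control fell as low as 0.842 on the log2(FPKM + 1) scale. TH-treated NASH was 1.36-fold under NASH (1.32 to 1.41). The ratio of Cat to Sod2 within a library was 21.7 (control), 20.8 (NASH) and 15.1 (TH-treated NASH). Both Sod2 and Txnrd1 passed 1.5-fold lower in TH-treated NASH against control once libraries were rescaled by median of ratios, by trimmed mean or without the 50 most abundant genes.

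Ordered by level within a library, Cat led in all 3, 12.6 to 15.8 times above the next gene. In control the order below it was Gclc, Gclm, Sod2, Txnrd1, Nfe2l2, Hmox1, Keap1, Srxn1 and Nqo1, with Hmox1 and Keap1 not separable by counting error. In NASH it was Gclc, Gclm, Sod2, Nfe2l2, Txnrd1, Srxn1, Hmox1, Keap1 and Nqo1, with Gclm and Sod2 inseparable as well as Nfe2l2 and Txnrd1. In TH-treated NASH it was Sod2, Txnrd1, Gclm, Hmox1, Nfe2l2, Gclc, Keap1, Srxn1 and Nqo1, with Gclm and Hmox1 inseparable, and Keap1 and Srxn1.

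Around the 10 genes, 11 lists with 203 further genes of the pathway and its surroundings were examined, of which 201 were found by symbol. The genes below 1 FPKM in all 3 libraries were set aside. Each count is to be read against the share of all genes printed with it, and a count near that share is not a result about the list. Because members and lists were picked with earlier results of these data known, a count past that share is not independent support. The lowest median of the 11 lists in TH-treated NASH against NASH was that of detoxification enzymes and transporters that answer to NRF2, such as conjugating transferases and export pumps. Of its 34 members measured, 20 were lower in TH-treated NASH than in NASH and 2 higher, against 9.03% and 8.49% of all genes, with a median log2 difference of −0.76. The count of lower members was 20 to 22 under every scaling tried. In NASH against control the same list had 10 of its 34 members higher and 3 lower, against 10.5% and 2.57% of all genes, with a median of 0.21 beside 0.12. The count of higher members was 5 to 10 over the scalings, with a median just under 0 in one of them. The count over all genes moved as well, to 744 of 11242 higher under median-of-ratios scaling, so 10.5% is not the share to set beside the 5.

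Among these, Abcc3, an export pump for conjugates on the sinusoidal side, stood at 36.2 (control), 58.9 (NASH) and 4.38 FPKM (TH-treated NASH), 13.5-fold lower in the last pair. The glutathione transferase gene Gsta1 stood at 4.15, 17.1 and 0.328 FPKM. It was 4.13-fold higher in NASH than control (3.53 to 4.86) and 52.2-fold lower in TH-treated NASH than NASH (29.0 to 105), on 11 fragments. Gsta2 was 15.3-fold lower and Gstm1 5.62-fold lower in TH-treated NASH than in NASH. Gsta and Gstm genes share reads with their close relatives, so the split within each family is uncertain. Cbr3, a carbonyl reductase, was 5.48-fold higher in NASH than control (3.65 to 8.50), where it was below 1 FPKM, Gstm3 was 4.15-fold higher, and Gstp1 was 3.01-fold lower.

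Against control, TH-treated NASH had 16 of the 34 lower and 4 higher, against 6.98% and 15.8% of all genes, so the higher count was under that share. The lower ones included Ugdh, which makes the glucuronic acid donor, at 12.7 against 60.9 FPKM, 4.78-fold lower (4.55 to 5.02), Abcc3 at 8.27-fold lower, Gsta2 at 21.5-fold lower and Gstp1 at 4.90-fold lower. The 2 members higher in TH-treated NASH than in NASH, named after their values were seen, were the reductase gene Akr1b7 and the alcohol dehydrogenase gene Adh7.

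In the glutathione list beyond the ligase, 3 of 24 genes were higher in NASH than control and none lower, close to the 10.5% and 2.57% of all genes. The count of higher genes was 1 to 4 over the scalings, and that of lower genes 0 to 1. The 3 were the secreted peroxidase gene Gpx3 at 11.3 against 3.06 FPKM, 3.69-fold (3.21 to 4.25), the lipid hydroperoxide peroxidase gene Gpx4 at 479 against 306 FPKM, 1.56-fold, and Gpx8 at 2.47-fold, the last below 1 FPKM in control. In TH-treated NASH, 4 of 24 were higher and 3 lower than in NASH, against 8.49% and 9.03% of all genes. Chac1, which degrades glutathione, was 2.11-fold higher and the theta-class transferase gene Gstt3 2.20-fold higher, while the microsomal transferase genes Mgst3 and Mgst1 were 3.60-fold and 1.87-fold lower. The list's median log2 difference of 0.01 turned negative under 3 scalings.

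The thioredoxin and peroxiredoxin list had 2 of 22 higher in NASH than control, the methionine sulfoxide reductase gene Msrb2 at 1.90-fold and the sestrin gene Sesn3 at 2.01-fold, and none lower. This was no more than the 10.5% of all genes, and the count was 1 to 2 over the scalings. In TH-treated NASH against NASH 1 was higher and 2 were lower, against 8.49% and 9.03% of all genes. Txnip, the thioredoxin-binding protein gene, was higher at 71.9 against 36.1 FPKM (1.996-fold, 1.92 to 2.07), and the lower ones were Sesn3 at 3.54-fold and Msra at 1.68-fold. None of the 6 peroxiredoxin genes, substrates of sulfiredoxin in some cases, passed 1.5-fold in any of the 3 comparisons. They were picked after their values were seen. Only 2.57% to 15.8% of all genes passed per pair and direction, so this is not a result about these 6 genes.

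In the scavenger list, the metallothionein genes Mt1 and Mt2, which bind zinc and copper and take up oxidants, stood at 347 and 128 FPKM in control, 117 and 64.6 in NASH, and 1152 and 706 in TH-treated NASH. They were 2.95-fold and 1.98-fold lower in NASH than control, then 9.81-fold (9.45 to 10.2) and 10.9-fold (10.4 to 11.5) higher in TH-treated NASH. The extracellular superoxide dismutase gene Sod3 was 2.05-fold higher in NASH than control. Of the list's 11 genes measured, 3 were higher and 2 lower in NASH than control, against 10.5% and 2.57% of all genes. In TH-treated NASH against NASH 2 were higher and 1 lower, against 8.49% and 9.03%. The lower one, the transhydrogenase gene Nnt, lay at the 1.5-fold line (log2 difference −0.59), and the count of lower genes was 0 to 2 over the scalings, so its call was lost under some of them.

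The regulator list held the partners and competitors of NRF2. Of its 17 genes measured, 1 was higher in NASH than control and none lower, under the 10.5% of all genes for higher. This was the small MAF gene Maff, at 8.15 against 4.64 FPKM (1.76-fold, 1.57 to 1.98), and its call was lost under some scalings. In TH-treated NASH 2 were lower than in NASH, against 9.03% of all genes, and none higher. They were the small MAF gene Mafk at 1.68-fold and the ubiquitin ligase gene Syvn1, whose product also targets NRF2, at 1.64-fold. Bach1, the repressor at the same elements, was 1.65-fold lower in TH-treated NASH than in control, at 5.54 against 9.13 FPKM, and Syvn1 was 1.99-fold lower. They were the 2 of 17 lower in that pair, against 6.98% of all genes, and none was higher, against 15.8%.

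NADPH feeds both glutathione and thioredoxin reductases. In its list 2 of 14 genes were higher in NASH than control, Pgd of the pentose phosphate pathway at 1.97-fold and Nnt at 1.55-fold, near the 10.5% of all genes, and the count was 1 to 2 over the scalings. Nnt is a member of the scavenger list as well, so its calls are counted in both lists. In TH-treated NASH the first enzyme of that pathway, G6pdx, was 1.74-fold higher than in NASH (1.504 to 2.01), a call that was lost under some scalings. The mitochondrial isocitrate dehydrogenase gene Idh2 and Nnt were 1.81-fold and 1.54-fold lower. These were 1 higher and 2 lower of 14, near the 8.49% and 9.03% of all genes. The counts were 0 to 1 and 1 to 3 over the scalings. The list for heme breakdown and ferritin, 7 genes, had none past 1.5-fold in NASH against control. Over all genes 10.5% were higher there and 2.57% lower. In TH-treated NASH against NASH its members Hmox2 (1.53-fold higher) and Fech, the last enzyme of heme synthesis (1.55-fold lower), passed, both close to the line. That is 1 higher and 1 lower of 7, against 8.49% and 9.03% of all genes, and each count was 0 under some scalings.

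Sources of hydrogen peroxide were set beside Cat. In the list of oxidases that make it, peroxisomal apart from the cytosolic Xdh, 4 of 9 genes were lower in TH-treated NASH than in NASH and none higher, against 9.03% and 8.49% of all genes, with a median log2 difference of −0.55 beside −0.03. Urate oxidase, Uox, stood at 798 (control), 768 (NASH) and 391 FPKM (TH-treated NASH), 1.97-fold lower in the last pair, and the bile acid oxidase gene Acox2 was 1.99-fold lower, beside 1.89-fold for Cat. Of the 21 peroxisome biogenesis and transport genes, 4 were higher in that pair, against 8.49% of all genes. The fatty acyl transporter genes Abcd2 and Abcd3 were 2.69-fold and 1.68-fold higher.

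NADPH oxidase, which makes superoxide in phagocytes, had 6 of 7 genes higher in NASH than control and none lower, against 10.5% and 2.57% of all genes, with a median log2 difference of 1.31 beside 0.12. The catalytic subunit gene Cybb was 3.61-fold higher (3.28 to 3.99), Cyba 2.99-fold, Ncf4 3.81-fold and Rac2 3.98-fold. In TH-treated NASH, Ncf1 was 1.77-fold higher than in NASH and Nox4, an oxidase of other cells, 3.01-fold lower at 4.21 against 12.7 FPKM. These were 1 higher and 1 lower of 7, against 8.49% and 9.03% of all genes. Several of these subunits are phagocyte genes, and the Kupffer and neutrophil marker sums given beside Hmox1 were also higher in NASH than control. For neutrophils only 2 of 10 markers passed 1.5-fold there. The part of these cells was not tested. Of 13 NF-kappaB and cytokine genes, a pathway that can induce Sod2, 6 were higher in NASH than control, against 10.5% of all genes, and 3 to 6 over the scalings. They included Nfkb2 at 2.41-fold (2.14 to 2.71), while Sod2 stood at 46.5 against 47.7 FPKM. Relb at 2.70-fold and Tnfaip3 at 4.82-fold were below 1 FPKM in control, and Tnfaip3, at 0.254, 1.23 and 0.480 FPKM, entered the list through the NASH library alone, so it had to differ and gives the count no support. In TH-treated NASH 2 were higher, the interleukin receptor gene Il1r1 at 2.90-fold and Nfkbiz at 1.67-fold, and 2 lower, Nfkb2 at 1.74-fold and, with the same limit, Tnfaip3, against 8.49% and 9.03% of all genes.

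**Figure D5:**
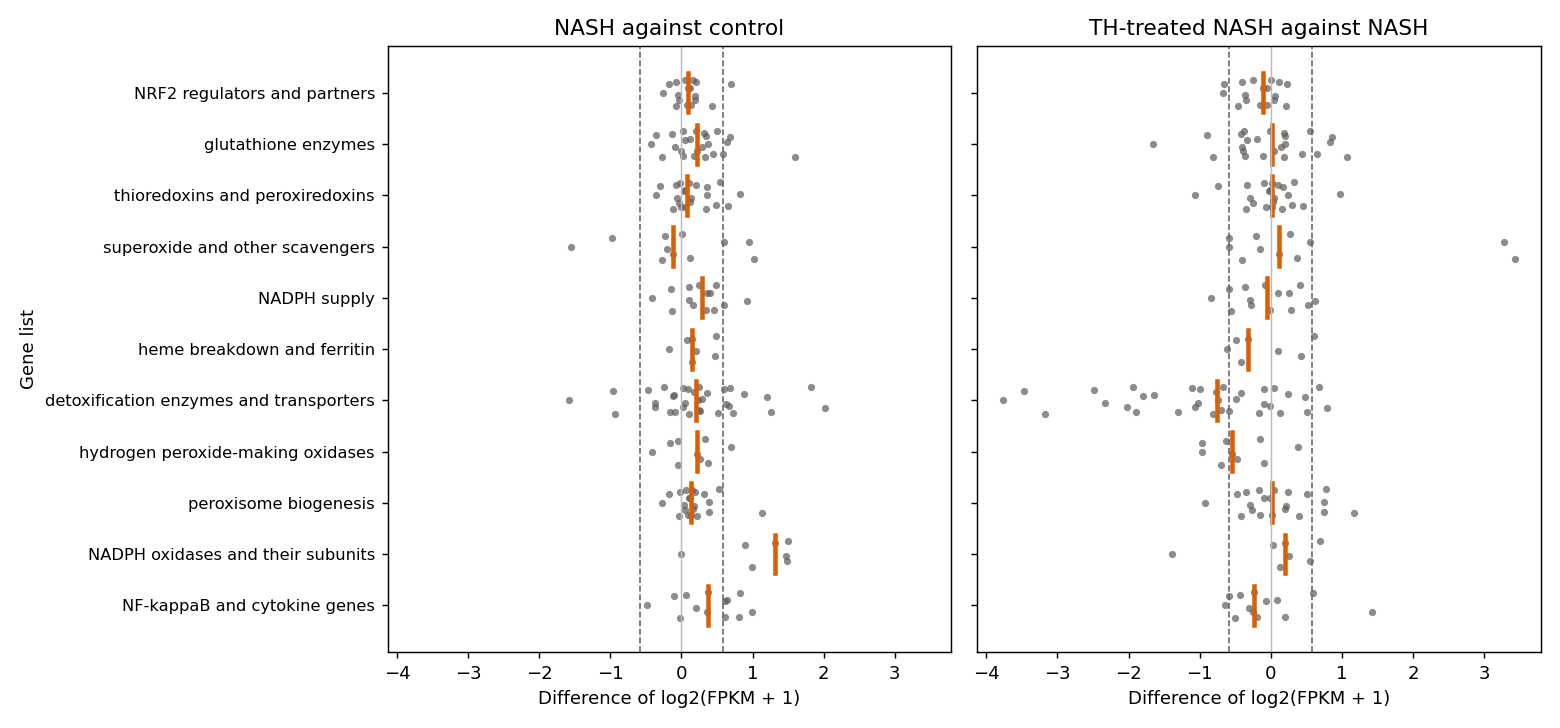
Difference of log2(FPKM + 1) for each gene (points, spread vertically for view) of 11 lists in NASH against control and TH-treated NASH against NASH, 1 library a side; orange bars are list medians and dashed lines mark 1.5-fold. The detoxification list has the lowest median in TH-treated NASH (−0.76), and Mt1 and Mt2 lie furthest right there (3.28 and 3.43).

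The genes nearest in pattern were sought for the 3 members with the widest range, Gclc, Nqo1 and Cat, among 4864 genes of at least 10 FPKM in any library. Nearness was the Euclidean distance over the NASH minus control and TH-treated NASH minus NASH log2 differences, which rest on 3 libraries and share that of NASH. Nearest to Gclc were Sugct, Mia2, Ephx1, Ugt1a6b and A1cf, at distances of 0.11 to 0.26. Of these Ephx1, microsomal epoxide hydrolase, stood at 216 (control), 230 (NASH) and 55.7 FPKM (TH-treated NASH). Nearest to Nqo1 were Bmyc, Gstm2, Inhbe, Srebf1 and Aldh3a2, at 0.12 to 0.24, and nearest to Cat were Nr1d1, Vwce, Zfp36l1, Dmgdh and Adck3, at 0.04 to 0.07. Dio1, the deiodinase gene that thyroid hormone induces, stood at 90.3 (control), 129 (NASH) and 430 FPKM (TH-treated NASH). Thrsp, also read as a reference gene, stood at 191, 390 and 485 FPKM. It was 2.04-fold higher in NASH than control and 1.24-fold higher in TH-treated NASH than in NASH.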

How the data were processed

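Liver polyA RNA libraries of 3 groups, 1 each, were analysed. Per the labels' protocols, mRNA was taken on oligo(dT) beads and primed at random for cDNA. The submitters' processing notes name TopHat2 and HTSeq; their versions, the strand mode and the build are not stated in the sources used here. The authors deposited FPKM per gene. Start and end of 5 of the 10 members equal those in GENCODE M21, and positions are printed as deposited.

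FPKM times gene length came in whole multiples of 1 step per library (100% of values above 0, within 0.01), which gave fragment counts of 54576236, 47009255 and 38303410. The members and lists were chosen with earlier results of these data known. Log2 differences used a pseudocount of 1 FPKM over genes that reached 1 FPKM in a library of the pair; lists kept genes at 1 FPKM in any library. Fold intervals are exact conditional binomial (Clopper-Pearson), levels exact Poisson, both 95%. PCR copies are not independent molecules. Gene names followed a rule: all members, up to 4 per list and comparison by size of difference, 5 nearest genes for each of 3 members, and Alb, Dio1 and Thrsp (191, 390 and 485 FPKM in control, NASH and TH-treated NASH). Adh7, Akr1b7, the peroxiredoxins, Cd163, Marco and Alas2 were chosen after their values were seen. Markers of liver endothelium (86.7, 100.0 and 107 FPKM summed) and of T, NK and B cells (4.81, 9.11 and 10.2) were also read. The steps were tested on simulated data. Python 3.11.15, numpy, pandas and scipy 1.17.1 were used. Alternatives were other pseudocounts, filters, thresholds and scalings.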

Additional observations from a re-analysis of the deposited data

How the results depend on the processing

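The members past 1.5-fold kept the sign of their log2 difference under other pseudocounts, filters, thresholds and scalings, and under centring by gene length, which was chosen after seeing the data. At a 2-fold threshold the members higher in NASH against control were 1 in place of 3 (Nqo1), those lower in TH-treated NASH against NASH 2 in place of 6 (Nqo1, Gclc), and those higher in TH-treated NASH against control 0 in place of 1. The members lower in TH-treated NASH against control were 5 in place of 3 under median-of-ratios scaling, 5 under trimmed-mean scaling and 5 when rescaled without the 50 most abundant genes, Txnrd1 and Sod2 being added. Under the first 2 of these scalings 2 members in place of 3 were higher in NASH against control, without Nfe2l2.

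Over all genes, 1208 were higher and 296 lower in NASH against control as deposited, 744 and 518 under median-of-ratios scaling, 810 and 464 under trimmed-mean scaling, 367 and 159 with a pseudocount of 5 FPKM, 383 and 89 at 2-fold and 551 and 216 at 5 FPKM or more. TH-treated NASH against NASH gave 996 and 1060, then 513 and 459 with that pseudocount, 320 and 325 at 2-fold and 710 and 677 at 5 FPKM or more. Its share of higher calls was 34.4% without the 50 most abundant genes and 35.2% over protein-coding genes. TH-treated NASH against control gave 1817 and 801, then 1219 and 1222 under median-of-ratios scaling, 1186 and 1255 under trimmed-mean scaling, 1179 and 1137 centred by gene length, 789 and 380 with that pseudocount, 639 and 278 at 2-fold and 1093 and 546 at 5 FPKM or more. The share of higher calls there was 53.4% without the 50 most abundant genes, and centring by gene length gave 50.9% there and 66.1% in NASH against control.

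No paired analysis was possible because each group has 1 library. The cause of these shifts was not tested. Depth limits Nqo1 most, at 125 to 563 fragments.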
